A study of Homo sapiens with 3 samples.

Results

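The genes described here are 10 transcripts that act in, or report on, negative feedback of the RAS-ERK pathway, found by symbol among the 58735 genes of a table of FPKM (fragments normalised to gene length and sequencing depth). They are the dual-specificity phosphatase genes DUSP1, DUSP4, DUSP5 and DUSP6, the Sprouty and Spred genes SPRY2, SPRY4 and SPRED1, the transcription factor genes ETV4 and ETV5, and PHLDA1. RNA sequencing was done on 3 libraries labelled as HCT116, the human colorectal carcinoma line that the labels name. All were grown in DMEM with fetal bovine serum, and every label gives the treatment as control. One library came from cells with an empty vector, called the control library here, another from cells overexpressing wild-type ZEB1, and the last from cells overexpressing ZEB1 K80R, in which a lysine of this zinc-finger transcription factor is replaced by an arginine. With 1 library per group the spread between cultures is unknown, no test of the conditions was possible and no p-value is given. Whether a line came from 1 clone or a pool, and which promoter drove the construct, was not given in the sources used here.

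ERK is the last kinase of a cascade that runs from growth factor receptors through RAS, RAF and MEK. Active ERK induces genes whose products damp the same cascade, and their mRNAs are therefore widely used as a readout of ERK output. Dual-specificity phosphatases remove the activating phosphates from ERK and related kinases, Sprouty and Spred proteins act nearer to the receptor and RAS, and the PEA3 factors ETV4 and ETV5 carry the signal on to transcription.

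The control library held 14764535 reads, the wild-type library 14322537 and the K80R library 13479517, recovered from the FPKM values. ZEB1 itself stood at 5.66, 9.83 and 10.3 FPKM in that order. Its ratio to control was 1.74 for wild type and 1.82 for K80R, or 1.26 and 1.34 once the FPKM were rescaled to a common sum. Of 12 markers of colon epithelium, 8 had 0 reads in all 3 libraries, among them EPCAM, CDH1, CDX2 and VIL1, and none exceeded 0.279 FPKM, whereas the simple epithelial keratins KRT8 and KRT18 stood between 41.3 and 51.7 and KRT19 between 0 and 0.161. All 7 mesenchymal markers passed a mean FPKM of 1, with VIM at 282.7, 545.8 and 435.6 and FN1 at 57.4, 111.5 and 117.4 FPKM in the order above. The median difference of these 7 from empty vector was 0.58 for wild type and 0.62 for K80R, or 0.13 and 0.18 at a common sum, and their part in the results was not tested. The missing colon markers go against the labelled cell line, so its identity is in doubt for all 3 libraries, and HCT116 is used here as the label only. None of 8 leukocyte and endothelial markers exceeded 0.495 FPKM, and their summed level was 0.401, 0.640 and 0.567 in the control, wild-type and K80R libraries. Mitochondrial genes took 1.29% of the reads of the control library, 7.77% of the wild-type library and 9.75% of the K80R library. Rescaling the FPKM to a common sum moved the median difference of all tested genes from empty vector, on the log2(FPKM + 1) scale, from 0.01 to −0.36 for either ZEB1 library, and only from −0.02 to −0.00 for K80R against wild type. For the 10 feedback genes, values at a common sum are given below wherever the rescaling turns a direction. The part of this composition in the results was not tested.

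Promoter sequences were at hand for 6 of the 10 genes in a RefSeq table (GRCh38.p14), each running from 250 bases before to 50 bases after an annotated start, and 2 are shown because their genes gave the extremes of the comparison between the ZEB1 forms. DUSP1 was the gene that differed most between the wild-type and K80R libraries, and SPRED1 the gene that differed least. The DUSP1 window is chr5:172771146-172771445 on the minus strand, and the SPRED1 window is chr15:38252586-38252885 on the plus strand. Both are written 5′ to 3′, with capitals for a cAMP response element, TGACGTCA.

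DUSP1: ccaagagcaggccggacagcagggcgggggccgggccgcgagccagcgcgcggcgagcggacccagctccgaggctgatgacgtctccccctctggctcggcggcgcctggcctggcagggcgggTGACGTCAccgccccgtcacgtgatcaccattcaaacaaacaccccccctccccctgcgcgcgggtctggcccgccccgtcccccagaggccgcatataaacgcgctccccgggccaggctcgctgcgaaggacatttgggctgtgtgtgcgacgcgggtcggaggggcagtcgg

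SPRED1: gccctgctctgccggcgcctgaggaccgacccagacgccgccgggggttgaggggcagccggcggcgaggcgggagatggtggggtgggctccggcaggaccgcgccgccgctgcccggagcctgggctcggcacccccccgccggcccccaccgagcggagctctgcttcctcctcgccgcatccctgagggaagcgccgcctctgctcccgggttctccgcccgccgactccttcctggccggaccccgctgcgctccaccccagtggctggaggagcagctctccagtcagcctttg

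The element lay at −125 to −118 from the first base of DUSP1. It was found in 1.84% of the 34943 promoter windows of the table and in no window of DUSP6, PHLDA1, SPRED1, SPRY2 or SPRY4. The AP-1 site TGANTCA, the capicua sites TGAATGAA and TGAATGGA, the ETS site CCGGAAGT, the ZEB1-type E-box CACCTG, the serum response element and the NF-κB site were searched on both strands in the same windows. None of these 7 was present in the 8 windows of the 6 genes, 3 of which belong to SPRY2. A window need not lie at the outer end of its gene, so other starts were not searched. The PHLDA1 window, 76031727 to 76032026, for example lay inside the gene, which begins at 76033932 on the minus strand. Over all windows they occurred in 7.72%, 1.65%, 1.02%, 4.11%, 20.6%, 1.3% and 5.9%, in the order named. DUSP4, DUSP5, ETV4 and ETV5 had no window.

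The levels of the 10 genes spanned a wide range. DUSP5 was the most abundant in every library, followed by PHLDA1, DUSP4 and SPRY2 in the same order each time, and DUSP6 was the lowest in every library. At 269.5 FPKM in the control library, DUSP5 lay above 99.3% of the 10372 protein-coding genes whose mean FPKM reached 1. Most neighbours in the order had separate 95% Poisson intervals, which cover counting error only. The intervals overlapped for SPRY2 and ETV5 in the control library, for DUSP1 and SPRY4 in the control and wild-type libraries, and for ETV5 and ETV4 in the K80R library. Of the 10 genes, 9 (all but DUSP6) passed the filter of a mean FPKM of at least 1, and each of the 9 was above 5 FPKM in all 3 libraries, so none passed through a single library.

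**Figure D1:**
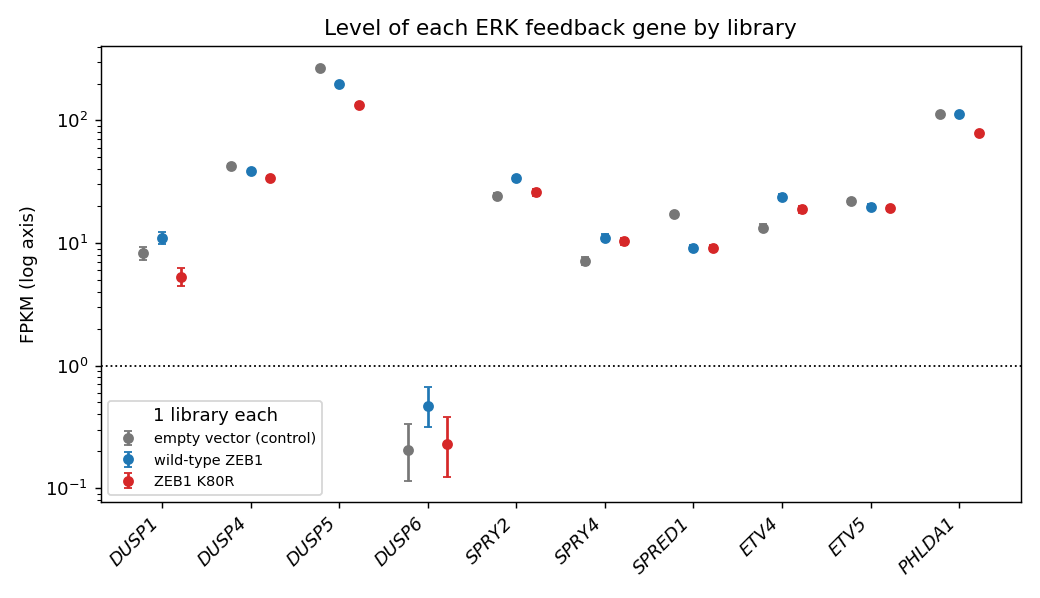
FPKM (log axis) of each of the 10 genes in the control, wild-type and K80R libraries, 1 point per library with its 95% Poisson counting interval and a dotted line at an FPKM of 1. DUSP5 and PHLDA1 lie highest, at 78.9 to 269.5, and DUSP6 lies lowest, at 0.204 to 0.470, in all 3 libraries.

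Among the phosphatases past the filter, DUSP1 and DUSP5 stood furthest below the other libraries in the K80R library. DUSP1 encodes a nuclear phosphatase, induced within minutes by growth factors and stress, that acts on ERK, JNK and p38 (ENSG00000120129; GRCh38, chromosome 5, 172768090 to 172771195, minus strand). Its FPKM was 8.29 in the control library, 11.0 with wild-type ZEB1 and 5.28 with K80R, from 266, 307 and 142 reads. As deposited, the wild-type library was thus the highest and the K80R library the lowest. Its K80R to wild type ratio was 0.479, with an exact 95% counting interval of 0.390 to 0.586, and 1.36% of the 12605 genes whose mean FPKM reached 1 had a lower difference. Against empty vector the ratio was 1.33 (1.12 to 1.57) for wild type, which became 0.968 at a common sum, and 0.637 (0.516 to 0.783) for K80R. Brackets hold such intervals throughout; they cover counting error only and say nothing of the spread between cultures.

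DUSP5, a nuclear phosphatase that binds ERK selectively and holds it in the nucleus, is encoded on chromosome 10, 110497838 to 110511544, plus strand (ENSG00000138166). It stood at 269.5, 198.6 and 133.7 FPKM in the control, wild-type and K80R libraries. Both ZEB1 libraries were below the control library, and K80R was the lowest. The ratio to control stood at 0.737 (0.715 to 0.759) for wild type and 0.496 (0.479 to 0.514) for K80R. K80R to wild type was 0.674 (0.649 to 0.699), just inside the 1.5-fold limit used for the counts below. Of all 10 members DUSP5 had the widest range over the 3 libraries, 1.01 on the log2(FPKM + 1) scale. Over these 3 libraries the protein-coding genes whose pair of differences from empty vector lay nearest to it, among 10371, were UQCRB, PTMS and PPP1R14B, at Euclidean distances of 0.015, 0.015 and 0.021.

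DUSP4, a nuclear phosphatase for ERK and JNK (ENSG00000120875; chromosome 8, 29333064 to 29350668, minus strand), varied less. It stood at 42.6, 38.4 and 33.9 FPKM in the control, wild-type and K80R libraries, the same order of libraries as for DUSP5. Its ratio to control was 0.903 (0.865 to 0.942) for wild type and 0.798 (0.763 to 0.834) for K80R, or 0.657 and 0.588 at a common sum. K80R to wild type was 0.884 (0.843 to 0.926). DUSP6, the cytoplasmic phosphatase that is specific for ERK and is often the leading ERK output transcript in tumour cells with an active pathway, was close to undetected (ENSG00000139318; chromosome 12, 89347232 to 89353271, minus strand). Its FPKM was 0.204, 0.470 and 0.227, from 15, 30 and 14 reads. The wild-type library held the most reads. The ratio of wild type to empty vector was 2.30 (1.20 to 4.61) and that of K80R to wild type 0.483 (0.237 to 0.940). K80R to empty vector was 1.11 (0.498 to 2.47), or 0.821 at a common sum. DUSP6 thus lay far below DUSP1, DUSP4 and DUSP5 in FPKM, which is per gene length.

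SPRY2 and SPRY4 were highest in the wild-type library, for SPRY4 within counting error of the K80R library. SPRY2, an antagonist of receptor tyrosine kinase signalling that is itself induced by ERK (ENSG00000136158; chromosome 13, 80335976 to 80340951, minus strand), stood at 24.1, 33.6 and 25.9 FPKM in the control, wild-type and K80R libraries. The control and K80R libraries were close to each other and below the wild-type library. Wild type to empty vector was 1.40 (1.29 to 1.51), which shrank to 1.02 at a common sum. K80R to wild type was 0.770 (0.710 to 0.834), and K80R to empty vector was 1.07 (0.988 to 1.17), which turned to 0.793 at a common sum. SPRY4, a related antagonist (ENSG00000187678; chromosome 5, 142310427 to 142326455, minus strand), stood at 7.13, 11.1 and 10.4 FPKM. Here both ZEB1 libraries lay above the control library and near each other. The ratio to control stood at 1.55 (1.41 to 1.71) for wild type and 1.45 (1.32 to 1.60) for K80R, or 1.13 and 1.07 at a common sum, and K80R to wild type was 0.937 (0.856 to 1.03).

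SPRED1 showed the opposite arrangement to SPRY4. Its product brings neurofibromin, a GTPase-activating protein for RAS, to the membrane (ENSG00000166068; chromosome 15, 38252326 to 38357249, plus strand). SPRED1 stood at 17.3 FPKM in the control library, 9.14 in the wild-type library and 9.12 in the K80R library, from 2271, 1041 and 1004 reads. Both ZEB1 libraries were below the control library by nearly the same amount. The ratio to control stood at 0.528 (0.490 to 0.568) for wild type and 0.527 (0.489 to 0.568) for K80R, and 5.38% and 6.63% of the tested genes had a lower difference in these comparisons. K80R to wild type was 0.999 (0.915 to 1.09).

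Of the PEA3 factors, ETV4 differed more between libraries than ETV5 as deposited, but not at a common sum. ETV4 (ENSG00000175832; chromosome 17, 43527844 to 43579620, minus strand) stood at 13.4, 23.8 and 18.9 FPKM in the control, wild-type and K80R libraries. The wild-type library was the highest and the control library the lowest. Its ratio to control was 1.78 (1.63 to 1.95) for wild type and 1.41 (1.28 to 1.56) for K80R, or 1.30 and 1.04 at a common sum, and K80R to wild type was 0.793 (0.727 to 0.866). ETV5, its close relative (ENSG00000244405; chromosome 3, 186046308 to 186110318, minus strand), stood at 21.9, 19.8 and 19.1 FPKM. The ratio to control stood at 0.903 (0.845 to 0.965) for wild type and 0.873 (0.816 to 0.934) for K80R, or 0.66 and 0.64 at a common sum. K80R to wild type was 0.966 (0.900 to 1.04). PHLDA1, a pleckstrin homology-like protein whose mRNA is part of common ERK output signatures (ENSG00000139289; chromosome 12, 76025447 to 76033932, minus strand), stood at 113.6, 111.8 and 78.9 FPKM. As deposited, the K80R library alone was low. K80R to wild type was 0.705 (0.686 to 0.725), K80R to empty vector 0.694 (0.676 to 0.713) and wild type to empty vector 0.984 (0.961 to 1.01), or 0.717 for the last at a common sum.

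Some members share their locus with other annotated genes, and since the strand setting of the counting was not given, reads on both could not be told apart where they overlap. ETV4 overlaps DHX8 on the opposite strand, which stood at 10.3, 7.57 and 7.89 FPKM in the control, wild-type and K80R libraries, an order of libraries unlike that of ETV4. SPRY4 overlaps SPRY4-AS1, at 0.174, 0.680 and 0.580 FPKM, from 5, 17 and 14 reads. ETV5 overlaps ETV5-AS1, with 0, 4 and 13 reads, and DGKG on the same strand, at 0.642, 0.581 and 0.903 FPKM. DUSP4, DUSP5, SPRY2 and SPRED1 overlap no other gene of the table.

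**Figure D2:**
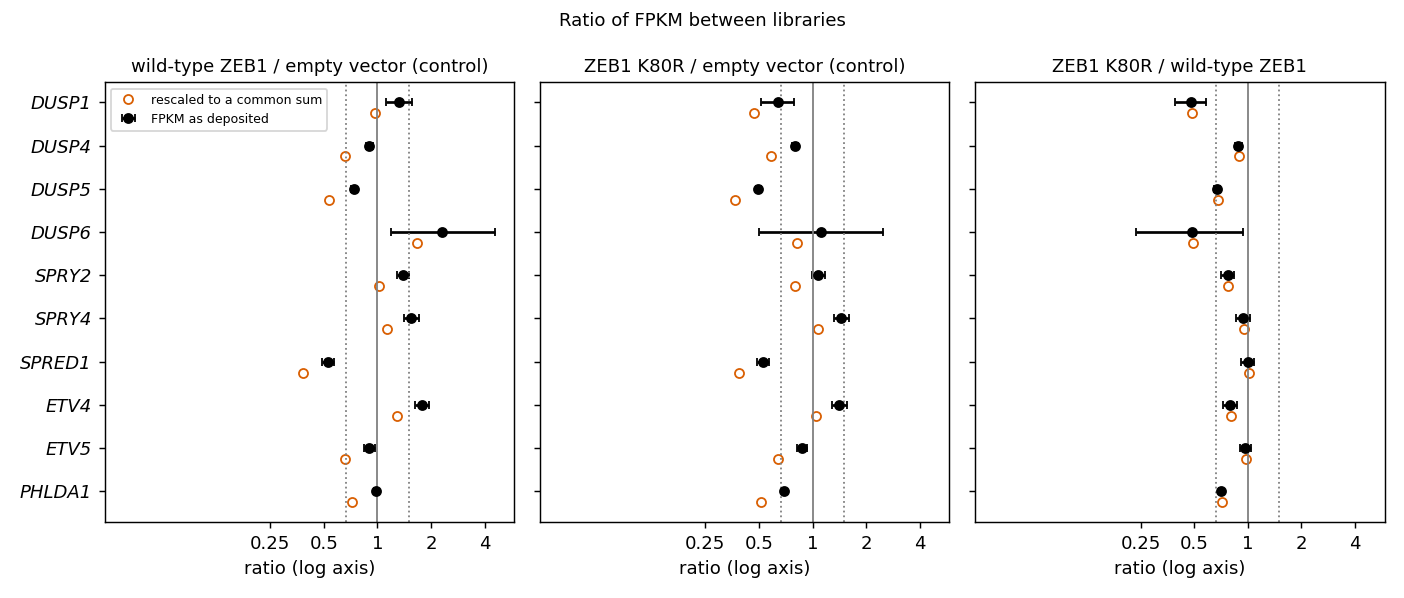
Ratio of FPKM (log axis) of each gene for wild-type ZEB1 to empty vector, ZEB1 K80R to empty vector and ZEB1 K80R to wild-type ZEB1; filled points with 95% counting intervals are as deposited, open points are rescaled to a common sum, and dotted lines mark 1.5-fold. In the right panel every filled point lies at or below 1, down to 0.479 for DUSP1, while the open point of SPRED1 lies at 1.01. The counts past 1.5-fold in the text use the ratio of FPKM + 1 instead.

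Between the 2 forms of ZEB1, the feedback genes lay on the low side in the K80R library. The 9 members past the filter all had a difference of log2(FPKM + 1) below 0, SPRED1 only just (ratio 0.999, or 1.01 at a common sum or after scaling by the median ratio), against 52.4% of the 12605 tested genes. DUSP6, which is below the filter and not among the tested genes, also lay below 0. The counting interval lay below 1 for 6 of the 9, namely DUSP1, DUSP4, DUSP5, SPRY2, ETV4 and PHLDA1, against 29.5% of all tested genes and 33.2% of the protein-coding ones, and above 1 for none, against 24.2%. Such an interval narrows with the reads of a gene, and the abundant members have more reads than most genes. By size, 1 of the 9 members past the filter, DUSP1, was at least 1.5-fold lower as a ratio of FPKM + 1, against 5.18% of all tested genes, and none was at least 1.5-fold higher, against 4.42%. The median difference of the 9 members was −0.32, beside −0.02 over all tested genes. DUSP5 and PHLDA1 followed DUSP1, and 5.57% and 8.07% of tested genes had a lower difference than they did. ETV5, SPRY4 and SPRED1 had intervals that held 1.

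Against empty vector the members went in both directions. Counts past 1.5-fold are again of the ratio of FPKM + 1. In the wild-type library, ETV4 was at least 1.5-fold higher, 1 of 9 members against 14.2% of tested genes. SPRED1 was at least 1.5-fold lower, 1 of 9 against 11.1%. SPRY4, with a ratio of FPKM of 1.55, fell short on that scale. The counting interval lay above 1 for 4 of 9, namely DUSP1, SPRY2, SPRY4 and ETV4 (35.2% of tested genes), and below 1 for 4 of 9, namely DUSP4, DUSP5, SPRED1 and ETV5 (33.6%). The median difference of the 9 members was −0.02, beside 0.01 over all tested genes, and at a common sum −0.48 beside −0.36. In the K80R library none was at least 1.5-fold higher, against 12.6% of tested genes, while DUSP5 and SPRED1 were at least 1.5-fold lower, 2 of 9 against 13%. DUSP1, with a ratio of FPKM of 0.637, fell short on the scale of FPKM + 1. The interval lay above 1 for SPRY4 and ETV4, 2 of 9 (34.7%), and below 1 for 6 of 9, namely DUSP1, DUSP4, DUSP5, SPRED1, ETV5 and PHLDA1 (33.8%). The median was −0.32 beside 0.01, and at a common sum −0.75 beside −0.36. As deposited, the members' shares past 1.5-fold against empty vector were near those of all tested genes. At a common sum, 0 of 9 were higher and 3 of 9 lower in the wild-type library, against 5.92% and 33.2% of the tested genes, and 0 of 9 higher and 6 of 9 lower in the K80R library, against 5.49% and 32.9%. The 3 comparisons share libraries, so they are not independent of each other.

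**Figure D3:**
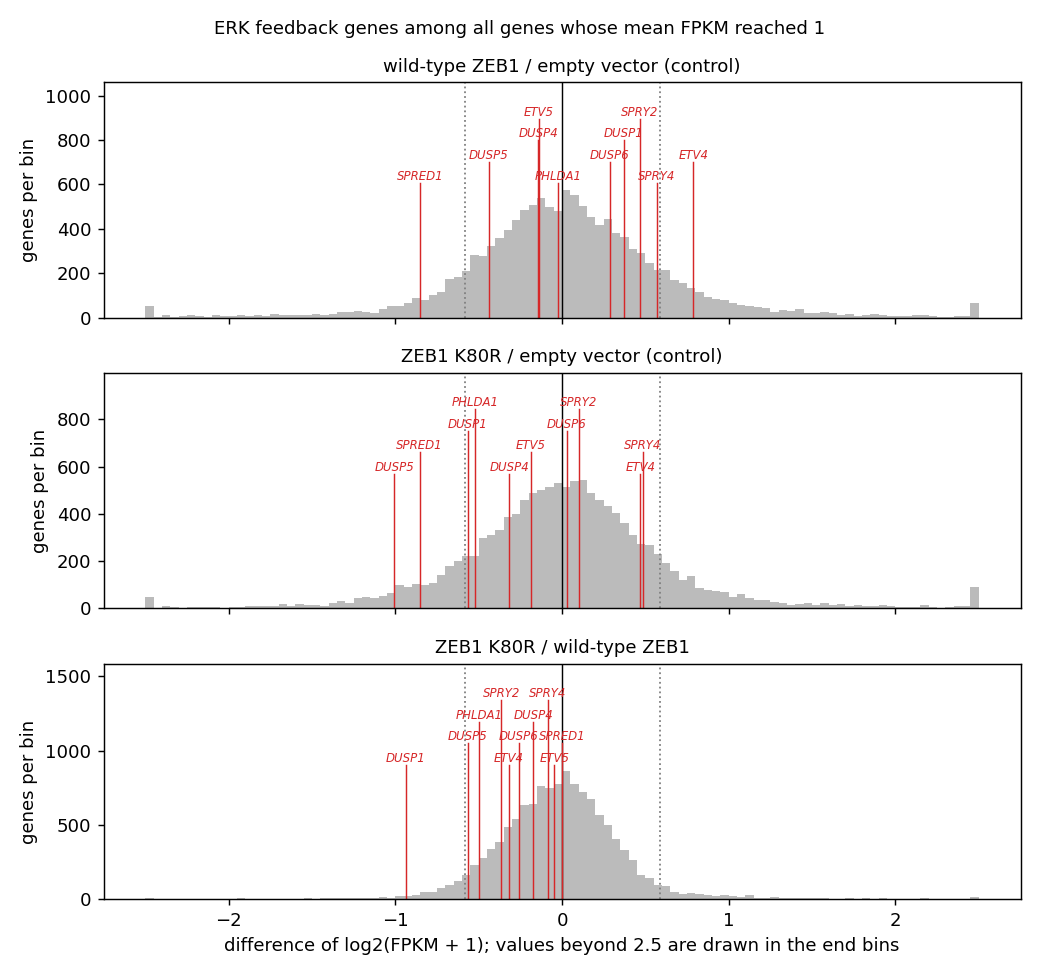
Histograms of the difference of log2(FPKM + 1) over the 12605 genes whose mean FPKM reached 1, for the 3 comparisons, with red lines at the 10 feedback genes (DUSP6 is below the filter and is drawn for its position only) and dotted lines at 1.5-fold. In the lowest panel, K80R against wild type, the red lines run from −0.94 for DUSP1 to −0.00 for SPRED1.

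Genes of the same families that are not among the 10 did not follow a single pattern. Of 6 other MAP kinase phosphatases, 4 passed the filter. All 4 were below 0 for K80R against wild type, against 52.4% of all tested genes, with a median of −0.31 beside −0.02. As deposited, DUSP7 differed little, at 4.71, 5.21 and 4.90 FPKM in the control, wild-type and K80R libraries. At a common sum its ratio to control was 0.805 for wild type and 0.767 for K80R. Its K80R to wild type interval held 1, at 0.941 (0.815 to 1.09). DUSP10, which acts on JNK and p38, stood at 7.65, 20.6 and 12.8 FPKM in the control, wild-type and K80R libraries, a K80R to wild type ratio of 0.622 (0.555 to 0.696), and was the 1 gene of the 4 past 1.5-fold. DUSP8, at 1.20, 1.62 and 1.09, and DUSP16, at 3.23, 3.62 and 2.78, also prefer JNK and p38. DUSP9 had 0 reads in all 3 libraries, and DUSP2 stood at 1.40, 0.375 and 0.272. Of the 5 other Sprouty, Spred and PEA3 genes, SPRED2, SPRED3 and ETV1 passed the filter. SPRED2, a close relative of SPRED1, stood at 8.05, 16.5 and 20.0 FPKM, higher in both ZEB1 libraries where SPRED1 was lower. Its ratio to control was 2.05 for wild type and 2.48 for K80R, against 0.528 and 0.527 for SPRED1. SPRED3 stood at 4.96, 7.00 and 6.41, and ETV1 at 1.68, 1.53 and 1.91.

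The other negative regulators of the cascade had no common direction in the comparison between the ZEB1 forms. Of 10, all past the filter, 3 were below 0 for K80R against wild type, against 52.4% of all tested genes. Their median was 0.10, beside −0.02 over all tested genes. None was past 1.5-fold as a ratio of FPKM + 1, against 5.18% of tested genes lower and 4.42% higher. ERRFI1, a feedback inhibitor of the EGF receptor, was the furthest below 0, at 153, 235.5 and 159.5 FPKM in the control, wild-type and K80R libraries, a K80R to wild type ratio of 0.677 (0.659 to 0.696). The RAS GTPase-activating genes NF1, at 4.63, 4.78 and 6.87, and RASAL2, at 5.21, 4.25 and 6.64, had K80R to wild type ratios of 1.44 (1.35 to 1.53) and 1.56 (1.44 to 1.70). Their K80R to control ratios were 1.48 and 1.27, or 1.09 and 0.939 at a common sum.

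Of the 21 genes of the core cascade, 20 passed the filter. Their median difference was −0.05 for K80R against wild type, −0.07 for wild type against empty vector and −0.10 for K80R against empty vector. At a common sum the medians against empty vector were −0.485 and −0.495, beside −0.36 over all tested genes. MAP2K2, which encodes the second MEK kinase, was the 1 of 20 at least 1.5-fold lower for K80R against wild type, against 5.18% of tested genes. It stood at 45.1, 36.1 and 23.6 FPKM in the control, wild-type and K80R libraries. MAPK3, which encodes one of the ERK kinases, stood at 4.79, 11.8 and 7.88, and HRAS at 36.9, 23.5 and 18.8. Relative to control, the wild-type library had SHC1 and MAPK3 past 1.5-fold upward, 2 of 20 against 14.2% of tested genes. PTPN11, GRB2 and HRAS were past it downward, 3 of 20 against 11.1%. For K80R, MAPK3 was past it upward, 1 of 20 against 12.6%. MAP2K1, MAP2K2, GRB2 and HRAS were past it downward, 4 of 20 against 13%. At a common sum the wild-type to control ratio was 1.16 for SHC1 and 1.80 for MAPK3. The K80R to control ratio of MAPK3 was then 1.21. The ratios of the genes named as downward were then 0.412 to 0.463 for wild type and 0.376 to 0.471 for K80R. All 10 transcription factors downstream of ERK passed the filter, none past 1.5-fold for K80R against wild type as a ratio of FPKM + 1. Their median was −0.16, beside −0.02 over all tested genes. ETS1 stood at 35.8, 41.6 and 27.5 FPKM, the ETS-domain factor ELK1 at 6.43, 11.1 and 10.3, and the ETS repressor ERF at 15.2, 23.5 and 19.2. Several of these genes outside the 10 lay on the other side of the control library at a common sum. The wild-type to control ratio went from 1.16 to 0.845 for ETS1, from 1.12 to 0.816 for DUSP16, from 1.35 to 0.981 for DUSP8 and from 1.03 to 0.752 for NF1. The K80R to control ratio went from 1.04 to 0.769 for ERRFI1, from 1.29 to 0.953 for SPRED3, from 1.26 to 0.928 for ERF and from 1.14 to 0.838 for ETV1.

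Other ERK output genes, listed apart from the feedback genes, were like them mostly lower in the K80R than in the wild-type library. Of 19, 18 passed the filter, and 15 of these were below 0, against 52.4% of all tested genes. At least 1.5-fold lower as a ratio of FPKM + 1 were 6 of 18, against 5.18%, and none was higher, against 4.42%. The median was −0.43, beside −0.32 for the 9 feedback genes and −0.02 over all tested genes. EGR1, an immediate early transcription factor, stood at 1.18, 7.58 and 2.54 FPKM in the control, wild-type and K80R libraries, and the AP-1 subunit FOSL1 at 56.9, 193 and 104. The sphingosine kinase SPHK1 stood at 51.6, 27.8 and 21.7, the same order of libraries as DUSP5. Against empty vector as deposited, the wild-type library had 8 of these 18 at least 1.5-fold higher, against 14.2% of tested genes. It had 1 of the 9 feedback genes, ETV4. These counts depend on the scaling. At a common sum the ratios of the 8 ran from 1.14 for MAFF to 4.66 for EGR1, and that of ETV4 was 1.30. The median difference of the 18 from empty vector was 0.44, or 0.07 at a common sum. It was −0.02 and −0.48 for the feedback genes, and 0.01 and −0.36 over all tested genes.

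**Figure D4:**
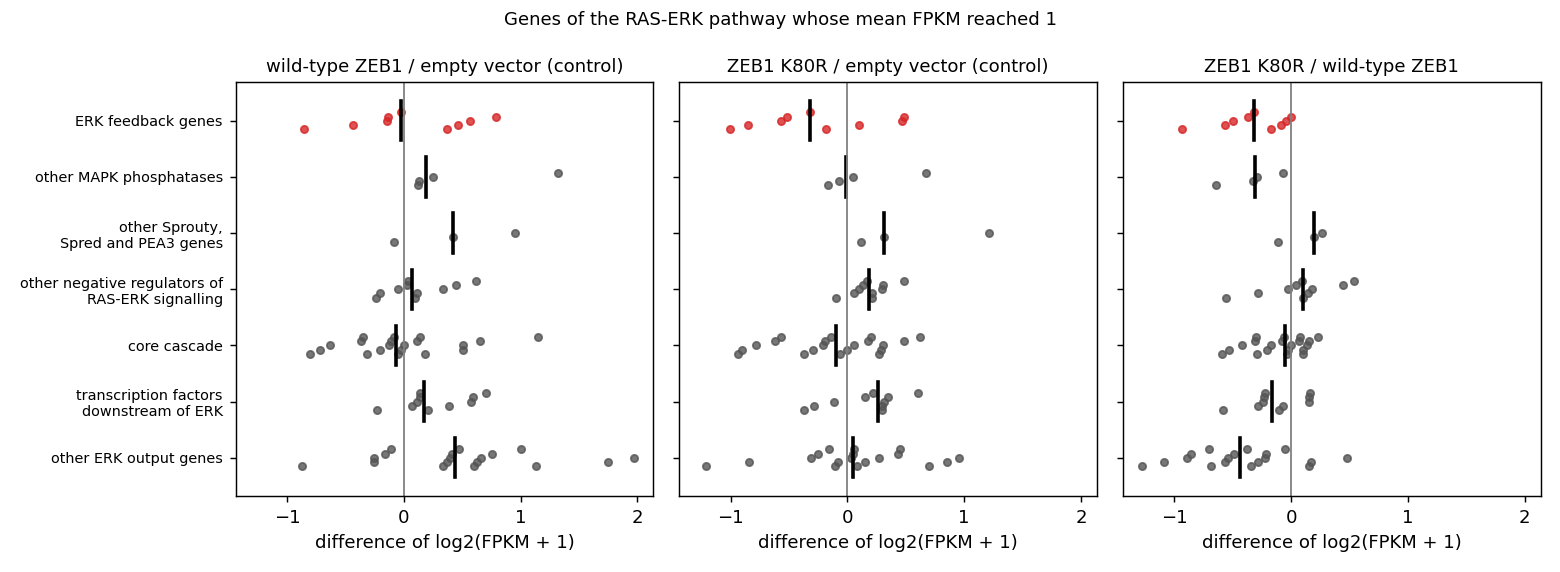
Difference of log2(FPKM + 1) of each gene whose mean FPKM reached 1, by gene list, for the 3 comparisons; each point is a gene, black bars are list medians and the 9 feedback genes past the filter are in red. For K80R against wild type the bar stands at −0.32 for the feedback genes, −0.43 for the other ERK output genes and 0.10 for the other negative regulators.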

How the data were processed

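Per the submitters' processing notes, CASAVA, featureCounts 1.5.0-p3, DESeq2 1.20.0 and hg38 were used, with no roles given; aligner, strandedness and annotation: not given in the sources used here. Values are FPKM, deposited by the authors in 1 table. All 58735 gene identifiers were found in GENCODE release 29 (GRCh38), with equal coordinates for the 10 members. FPKM times gene length was a whole multiple of 1 step per library for 100.0% of genes above 0 (tolerance 0.05 reads), which gave the reads; the empty vector (control) library held 350 genes with exactly 1 read against 2705 and 2902 in the wild-type and K80R libraries, so its counting intervals may be too narrow. Intervals of ratios are exact conditional (Clopper-Pearson) 95% intervals from these reads.

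Groups came from the genotype label. Differences are of log2(FPKM + 1), which understates low genes; genes whose mean FPKM reached 1 were compared, and 1.5-fold on that scale was counted. The code was tested on simulated data (Python 3.11.15, scipy 1.17.1). Members and lists were chosen with earlier results of these data known. Named genes were the members, ZEB1, up to 3 genes per list with the largest difference, the 3 nearest to the member of widest range, and marker genes. DHX8 and other overlapping genes, DUSP2, DUSP7, DUSP9, SHC1, PTPN11, GRB2, MAP2K1, MAFF and EPHA4 were named after their values were seen. Alternatives were pseudocounts of 0.1 and 5, other filters, rescaling to a common sum or by the median ratio, and 2-fold.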

Additional observations from a re-analysis of the deposited data

How the results depend on the processing

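No paired analysis was possible because each group held 1 library. For K80R against wild type, the median difference of the members lay between −0.33 and −0.27 under the 7 alternatives that apply to it, and DUSP1 alone was 1.5-fold lower in each; at 2-fold the count was 0. For wild type against empty vector, the median turned from −0.02 to 0.133 with a filter of 0.1 or none, where DUSP6 enters, and moved to −0.477 at a common sum. The count of members higher there was 2 with a pseudocount of 0.1, and 0 at a common sum or at 2-fold; the count lower was 3 at a common sum and 0 at 2-fold. For K80R against empty vector, 6 members were lower and the median was −0.747 at a common sum, and 1 was lower at 2-fold. At a common sum 33.2% (wild type) and 32.9% (K80R) of all tested genes were 1.5-fold lower. The other alternatives left these counts within 1.5 times. The common sum moves all genes of a library alike. Depth limits DUSP6, with at most 30 reads.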

Other observations

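Among the other ERK output genes, EPHA4, an ephrin receptor, went against the feedback genes. It stood at 1.05, 1.84 and 2.97 FPKM in the control, wild-type and K80R libraries, a K80R to wild type ratio of 1.61 with an exact 95% counting interval of 1.34 to 1.94. CCND1, the cyclin gene that is a classical target of sustained ERK activity, stood at 234.9, 197.0 and 222.6 FPKM, with K80R to wild type at 1.13 (1.10 to 1.16). Both genes were singled out after their values were seen.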
